A study of Homo sapiens with 12 samples.

Results

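The genes described here encode amino acid transporters of the solute carrier families SLC1, SLC3, SLC7, SLC36, SLC38 and SLC43, measured by messenger RNA sequencing. They were chosen by gene symbol alone, as every listed gene of those families, which gave 37 of 28035 genes. Of these, 26 averaged at least 10 normalized reads over the 12 libraries and were tested, and 11 did not reach that mean. The cells were OVCAR-3, an established line from a human ovarian adenocarcinoma, labelled as wild type epithelial cells and collected 6 h after treatment. The 4 groups of 3 libraries were the Combination (Fusicoccin A together with interferon alpha), IFNa (interferon alpha alone), FC-A (Fusicoccin A alone) and DMSO (the solvent control). Fusicoccin A is a fungal compound that stabilises the binding of 14-3-3 adapter proteins to their partners, and interferon alpha is an antiviral cytokine. The labels used here state no doses, and all groups are treatments of 1 cell line.

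Amino acids cross membranes mostly through carriers, and each family works in its own way. SLC7 light chains exchange one amino acid for another and most need a heavy chain of the SLC3 family to reach the cell surface, while SLC1 and SLC38 carriers use the sodium gradient and SLC36 carriers use protons. Several of these genes are known targets of the transcription factor ATF4, which is made when cells lack amino acids, and the uptake of leucine, glutamine and arginine feeds the growth kinase complex mTORC1. Cystine brought in by SLC7A11 supplies cysteine for the antioxidant glutathione.

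The 250 bases before an annotated start are shown for 3 members that rose and 1 that fell in the cells given IFNa, from RefSeq on build GRCh38.p14, 5′ to 3′ on the strand of the gene. These 4 members were called with IFNa against DMSO under every alternative that tested them, other than a required 2-fold change. The same held for SLC1A4, SLC7A8 and SLC7A9, which are not shown, and for SLC7A11, which had no window. The 4 were chosen after their values were seen. Capitals mark matches to any of 6 searched motifs. The windows are chr5:36596338-36596587 on the plus strand for SLC1A3, chr12:46372774-46373023 on the minus strand for SLC38A2, chr13:29595689-29595938 on the minus strand for SLC7A1 and chrX:48470261-48470510 on the minus strand for SLC38A5.
SLC1A3: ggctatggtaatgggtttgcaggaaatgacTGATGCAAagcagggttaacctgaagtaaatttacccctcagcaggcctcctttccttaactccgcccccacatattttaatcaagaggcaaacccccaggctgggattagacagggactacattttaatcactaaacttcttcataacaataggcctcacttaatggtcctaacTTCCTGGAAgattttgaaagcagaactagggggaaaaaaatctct
SLC38A2: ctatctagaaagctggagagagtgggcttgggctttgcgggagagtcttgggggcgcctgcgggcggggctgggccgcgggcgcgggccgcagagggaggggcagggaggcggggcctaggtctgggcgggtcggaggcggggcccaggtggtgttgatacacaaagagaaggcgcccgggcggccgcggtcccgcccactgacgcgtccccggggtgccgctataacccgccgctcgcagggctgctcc
SLC7A1: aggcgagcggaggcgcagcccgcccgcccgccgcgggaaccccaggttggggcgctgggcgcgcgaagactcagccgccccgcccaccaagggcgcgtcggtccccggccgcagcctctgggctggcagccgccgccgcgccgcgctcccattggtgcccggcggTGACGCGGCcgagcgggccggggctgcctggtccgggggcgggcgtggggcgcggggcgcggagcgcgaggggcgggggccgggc
SLC38A5: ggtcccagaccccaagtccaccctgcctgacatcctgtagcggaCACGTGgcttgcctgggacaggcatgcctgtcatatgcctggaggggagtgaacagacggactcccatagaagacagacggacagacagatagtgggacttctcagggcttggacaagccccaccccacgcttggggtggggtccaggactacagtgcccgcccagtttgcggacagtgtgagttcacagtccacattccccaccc
In SLC1A3 the capitals are TGATGCAA, starting 220 bases before the start, which matches the amino acid response motif TGATGNAA, and TTCCTGGAA, starting 45 bases before it, which matches the STAT motif TTCNNNGAA. SLC1A3 has other annotated starts whose windows hold neither of these matches, but 1 to the antioxidant response motif and 2 to AP-1. SLC7A1 has TGACGCGGC, a match to the antioxidant response motif TGACNNNGC, 85 bases before its start. SLC38A5 has the E-box CACGTG 206 bases before its start. SLC38A2 has none of the 6 motifs in its window. All motifs were searched on both strands. Over 35116 starts of all genes, 3.02% held the interferon response motif (GAAA, any pair of bases, GAAA), 6.57% the STAT motif, 3.14% the amino acid response motif, 10.9% the antioxidant motif, 6.57% the AP-1 motif TGANTCA, which can overlap the antioxidant motif, and 6.34% the E-box. Of the 26 tested members 23 had a window, 44 starts in all. Of these 44 starts 2 had a match to the interferon response motif, 4 to the STAT motif, 2 to the amino acid response motif, 6 to the antioxidant motif, 7 to AP-1 and 7 to the E-box. A match describes letters only.

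Reads assigned to genes came to between 31.2 M and 39.5 M per library. After the authors' scaling, the summed normalized reads lay between 36.8 M and 37.1 M in the Combination, 36.3 M and 37.6 M with IFNa, 31.7 M and 32.7 M with FC-A and 32.2 M and 32.6 M in DMSO. The 10 markers of ovarian epithelium were present in every library, with EPCAM between 8335 and 9247 normalized reads. Of the fibroblast markers, DCN and LUM were at or near 0 (0 to 1.90 and 0 to 1.02), while the sum of the 5 markers, nearly all of it COL1A1, ranged from 1587 to 2197 in the Combination, 1419.6 to 1935 with IFNa, 1021 to 1096 with FC-A and 855 to 927 in DMSO. COL1A2 went the other way, with means of 51.1 in the Combination, 44.6 with IFNa, 83.3 with FC-A and 78.1 in DMSO. The 5 leukocyte markers summed to between 194 and 317 in all libraries, most of it CD14. The 3 endothelial markers summed to between 182 and 232 in the Combination, 193 and 253 with IFNa, 253 and 341 with FC-A and 286 and 359 in DMSO, although KDR among them averaged 78.4 in the Combination, 58.2 with IFNa, 41.0 with FC-A and 41.9 in DMSO. The part of these markers in the results was not tested. In bulk RNA, fewer cells of a type and less RNA per cell cannot be told apart. The labels do not say that replicates were separate cultures, so each p-value refers to the spread between these libraries, which may be technical.

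Per kilobase of exon, the most abundant transporter transcript in DMSO cells was SLC7A5, which encodes the leucine exchanger LAT1, at 4046 ± 408 normalized reads per kilobase (SD, n = 3). SLC1A5, the glutamine carrier ASCT2, followed at 2448 ± 92.1, then the sodium-coupled glutamine carrier SLC38A1 at 1873 ± 81.3. SLC3A2, the CD98 heavy chain that carries LAT1 to the membrane, stood at 1574 ± 119 and SLC38A2, the carrier SNAT2, at 1252 ± 51.4. These 5 genes, with SLC38A10 at 518 ± 10.6 and SLC7A1 at 337 ± 6.90, kept the top 7 places whether length was the union of all exons or the principal transcript, although SLC3A2 ranked 2 by the principal transcript. SLC7A11 was far down the order, at rank 23 of 26 with 9.15 ± 1.15 normalized reads per kilobase. Its level overlapped that of SLC38A5 at 10.2 ± 1.37, and SLC36A1, SLC7A6 and SLC38A9 (107 ± 7.22, 101 ± 4.69 and 98.9 ± 4.59) likewise lay within their spreads of each other. SLC7A9 was last at 0.834 ± 0.522.

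**Figure D1:**
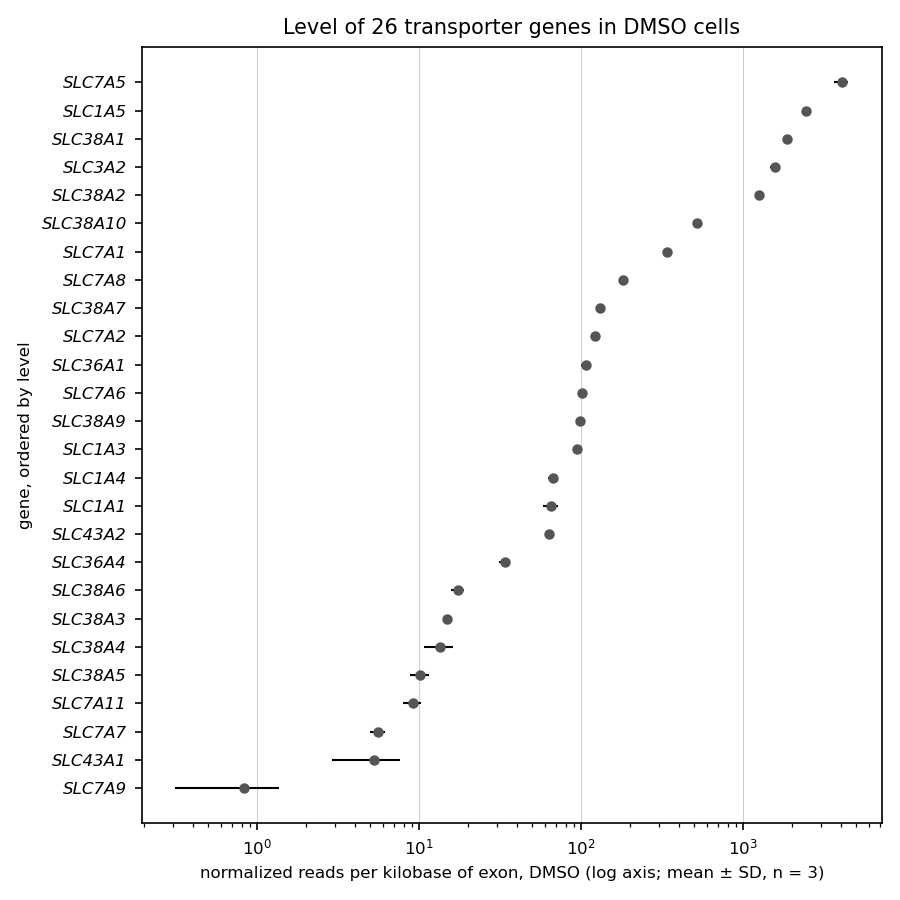
Level of each tested transporter gene in DMSO cells, in normalized reads per kilobase of exon on a log axis (points, mean of 3 libraries; bars, SD). SLC7A5 stands at 4046 and SLC7A9 at 0.834, and SLC7A11 lies near the low end at 9.15.

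Of the 7 tested genes for heavy and light chains, 2 rose and 1 fell in the Combination and 2 rose and 2 fell with IFNa, each against DMSO. Over all genes, 48.3% and 46.9% were called in these comparisons. The 2 that rose were SLC7A11 and SLC7A9 in both, and SLC7A9 passed the minimum mean only through libraries with interferon. SLC3A2 measured 10091, 9919 and 8433 normalized reads in the Combination, 9700.2, 10359 and 8812 with IFNa, 9597, 8729.6 and 7029 with FC-A and 8507, 8507 and 7443 in DMSO. SLC7A5 measured 19723, 19109 and 14332 in the Combination, 20952, 23880.2 and 15994 with IFNa, 23537, 20670.1 and 15756 with FC-A and 19873, 20707 and 17015 in DMSO. For SLC3A2 every IFNa library was above every DMSO library, and all other pairs of groups overlapped. For SLC7A5 all groups overlapped. In both genes replicate 3 was the lowest library of each group. With all 12 libraries and no replicate term, limma called neither in any comparison. For SLC3A2 the log2 fold change was 0.22 in the Combination (limma adjusted p = 0.102) and 0.24 with IFNa (95% interval 0.015 to 0.46, adjusted p = 0.0747), each against DMSO. Both differences passed without replicate 3 of every group (adjusted p = 0.00142 and 0.00129), and the authors' deposited table lists the first as passing (log2 fold change 0.22, adjusted p = 0.0149), so SLC3A2 lay near the threshold. SLC7A5 measured -0.12 in the Combination (adjusted p = 0.551) and 0.064 with IFNa (95% interval -0.29 to 0.41, adjusted p = 0.771), each against DMSO. After quantile normalization it was lower in the Combination than in DMSO (-0.37, adjusted p = 0.0486) and than in FC-A (-0.42, adjusted p = 0.0291), and the one from FC-A also passed without replicate 3 of every group (-0.18, adjusted p = 0.0288). SLC7A5 has a near copy, the pseudogene SLC7A5P1, which averaged 45.0 normalized reads in the Combination, 50.9 with IFNa, 25.3 with FC-A and 28.4 in DMSO, and how reads that fit both copies were counted is unknown here.

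SLC7A11, the light chain xCT that imports cystine in exchange for glutamate, had 4 groups that did not overlap. It measured 194, 204 and 212 normalized reads in the Combination, 148, 132 and 147 with IFNa, 103, 125 and 122 with FC-A and 88.0, 99.5 and 77.2 in DMSO. The lowest Combination library was above every IFNa library, each IFNa library above every FC-A library and each FC-A library above every DMSO library. Against DMSO, SLC7A11 rose 2.30-fold in the Combination (log2 fold change 1.20, SE 0.12, limma adjusted p = 1.67e-06) and 1.61-fold with IFNa (0.69, SE 0.12, adjusted p = 0.000347). Against FC-A the Combination was 1.74-fold higher (0.80, SE 0.12, adjusted p = 8.82e-05). These values rest on 172 to 199 recovered reads per Combination library, 135 to 145 per IFNa library, 116 to 133 per FC-A library and 81 to 104 per DMSO library.

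The remaining light chains went in both directions. SLC7A8, the neutral amino acid exchanger LAT2, measured 619.5, 554 and 526 normalized reads in the Combination, 664, 665 and 602 with IFNa, 1027, 1046 and 945 with FC-A and 1065, 1067 and 1116 in DMSO. All libraries with interferon were below all libraries without it. SLC7A8 fell by 0.94 on the log2 scale in the Combination (SE 0.07, limma adjusted p = 8.41e-08) and by 0.75 with IFNa (SE 0.07, adjusted p = 1.01e-06), each against DMSO, and by 0.83 in the Combination against FC-A (adjusted p = 3.08e-07). SLC7A7, the exchanger y+LAT1 for cationic and neutral amino acids, was scarce, at 22.2, 18.9 and 16.02 in the Combination, 14.3, 19.99 and 9.82 with IFNa, 46.3, 28.98 and 27.6 with FC-A and 28.1, 31.6 and 25.7 in DMSO. Again no library with interferon reached the lowest one without it. SLC7A7 fell by 0.96 with IFNa against DMSO (adjusted p = 0.012) and by 0.79 in the Combination against FC-A (adjusted p = 0.0307), whereas the Combination against DMSO did not pass (-0.56, adjusted p = 0.111). The first call was lost without IFNa replicate 3 (adjusted p = 0.0526) and without replicate 3 of every group (0.0575), and the second without FC-A replicate 1 (0.135), Combination replicate 2 (0.0648) or Combination replicate 3 (0.0969). The second was also lost with no minimum (0.0676), after quantile normalization (0.0839) and with DESeq2 (0.0518), and the authors' deposited table does not call it either (0.0518).

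Its relative SLC7A6, the exchanger y+LAT2, measured 637, 702 and 634 normalized reads in the Combination, 769, 814 and 686 with IFNa, 969, 723 and 727 with FC-A and 784, 795 and 728 in DMSO. The Combination libraries were below all FC-A and DMSO libraries, and 1 FC-A library stood above the rest. SLC7A6 fell in the Combination against FC-A (by 0.28 on the log2 scale, SE 0.10, limma adjusted p = 0.0371), a call lost without FC-A replicate 1 (0.171), Combination replicate 1 (0.0989) or Combination replicate 3 (0.0955). In the Combination against DMSO it was not called by limma (-0.23, adjusted p = 0.0874), whereas the authors' deposited table lists it as lower there (-0.22, adjusted p = 0.0272). It overlaps SLC7A6OS on the other strand, and the strand setting of the authors' counting is unknown here. SLC7A9, the light chain b0,+AT that takes up cystine and cationic amino acids with the heavy chain SLC3A1, lay at 15.8, 20.1 and 14.9 in the Combination, 23.5, 11.4 and 20.7 with IFNa, 3.56, 0 and 3.68 with FC-A and 3.63, 1.91 and 0.953 in DMSO. Every library with interferon was above every library without it. Its log2 fold change was 2.58 (SE 0.56, adjusted p = 0.00166) in the Combination and 2.66 (SE 0.56, adjusted p = 0.00144) with IFNa, each against DMSO, but its mean of 10.02 passed the minimum only through those libraries, so its call adds no evidence to the counts below. DMSO libraries held 1 to 4 reads of it.

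**Figure D2:**
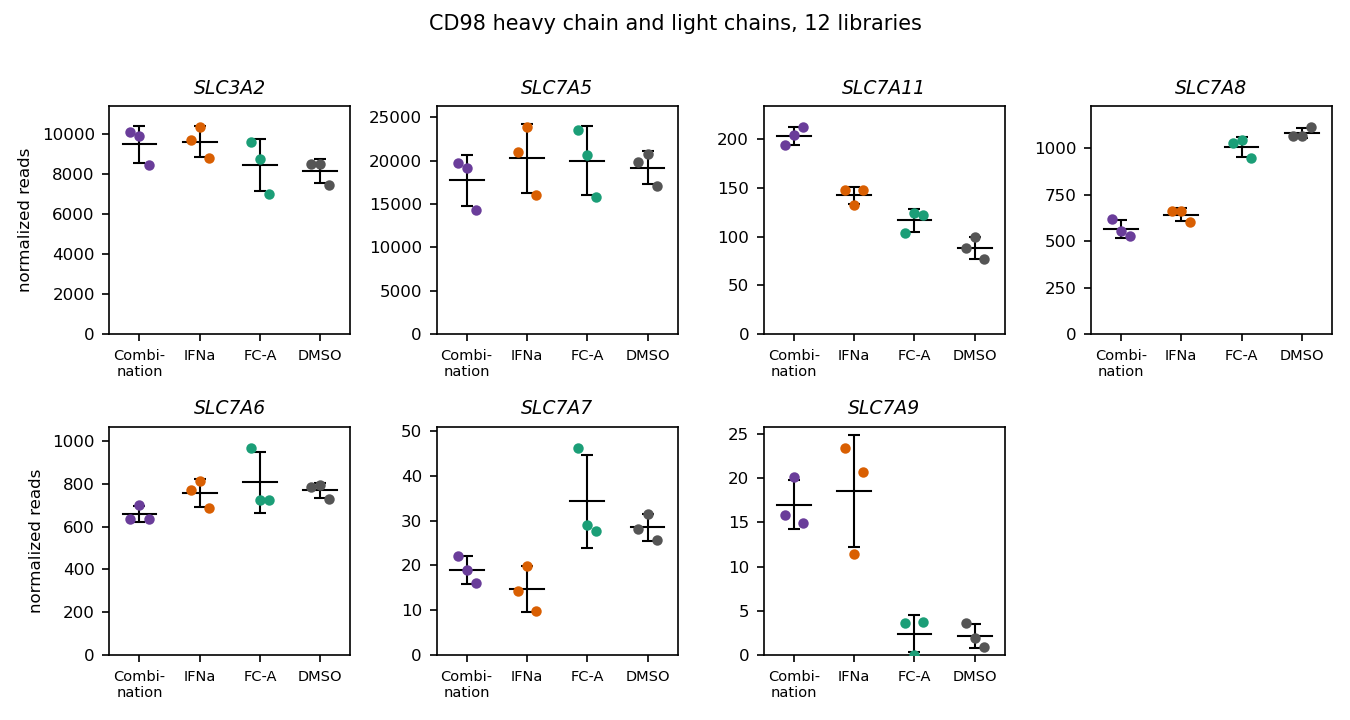
Normalized reads of the CD98 heavy chain SLC3A2 and 6 light chains in the Combination, IFNa, FC-A and DMSO libraries (points, single libraries; bars, mean ± SD, n = 3). SLC7A11 steps down across the 4 groups with means of 203, 142, 117 and 88.2, and SLC7A8 and SLC7A7 are low in both groups with interferon. SLC7A5 overlaps throughout, and SLC3A2 overlaps except that its IFNa libraries lie above its DMSO libraries.

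Both tested carriers of arginine and lysine in the cationic group were called in at least 1 comparison. Over all genes, 46.9% were called with IFNa against DMSO, 48.3% in the Combination against DMSO and 48.9% in the Combination against FC-A. SLC7A1, the carrier CAT1, measured 3550.4, 3893 and 4047 normalized reads in the Combination, 3643, 3997 and 3828 with IFNa, 2748, 2643 and 2607 with FC-A and 2654, 2569 and 2556 in DMSO. The interferon libraries were all above the others, and the FC-A and DMSO libraries overlapped. SLC7A1 rose 1.47-fold in the Combination (log2 fold change 0.56, SE 0.05, limma adjusted p = 1.07e-06) and 1.47-fold with IFNa (0.56, SE 0.05, adjusted p = 1.22e-06), each against DMSO, and 1.43-fold in the Combination against FC-A (adjusted p = 2.33e-06). SLC7A2, the related carrier CAT2, took the other course, with 764, 733 and 739 in the Combination, 874, 929 and 851 with IFNa, 834, 717 and 835 with FC-A and 966, 985 and 940.1 in DMSO. The Combination libraries were below all IFNa and DMSO libraries. SLC7A2 fell by 0.37 on the log2 scale in the Combination against DMSO (SE 0.07, adjusted p = 0.000381), and with IFNa against DMSO it measured -0.12 (adjusted p = 0.143).

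Among the SLC1 carriers, which take up glutamate or small neutral amino acids, SLC1A3 moved most. SLC1A3, the glutamate and aspartate carrier EAAT1, measured 1249, 1272 and 1529 normalized reads in the Combination, 1364, 1225 and 1479.6 with IFNa, 538, 477 and 500.3 with FC-A and 589.5, 553 and 617 in DMSO. The groups with interferon overlapped each other and stood far above the other libraries. SLC1A3 rose 2.29-fold in the Combination (log2 fold change 1.20, SE 0.09, limma adjusted p = 6.06e-08) and 2.31-fold with IFNa (1.21, SE 0.09, adjusted p = 6.21e-08), each against DMSO, and 2.66-fold in the Combination against FC-A (1.41, adjusted p = 9.43e-09). SLC1A4, the alanine, serine and cysteine carrier ASCT1, measured 387, 398 and 366 in the Combination, 344, 371 and 387 with IFNa, 495, 493 and 449.7 with FC-A and 454, 496 and 434 in DMSO. No interferon library reached the lowest of the others. SLC1A4 fell by 0.26 in the Combination (adjusted p = 0.0129, or 0.0679 without DMSO replicate 2) and by 0.33 with IFNa (adjusted p = 0.00355), each against DMSO, and by 0.32 in the Combination against FC-A (adjusted p = 0.00389). The abundant SLC1A5 was not called, and its log2 fold change in the Combination against DMSO was -0.052 (95% interval -0.17 to 0.069). SLC1A1, the glutamate and cysteine carrier EAAT3, varied from 159.9 to 295 within the Combination and was not called (-0.53 with IFNa against DMSO, adjusted p = 0.0672). Without replicate 3 of every group it was (-0.66, adjusted p = 0.0017).

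Of the SLC38 carriers, which move glutamine and other neutral amino acids, SLC38A2 rose with interferon, and the others fell or were not called. SLC38A2 measured 12644, 13757 and 13585 normalized reads in the Combination, 13633, 13319.7 and 13598 with IFNa, 7684, 7397 and 8145 with FC-A and 8189, 7968 and 8634 in DMSO. Its interferon libraries were all above its other libraries. SLC38A2 rose 1.61-fold in the Combination (log2 fold change 0.69, SE 0.05, limma adjusted p = 5.19e-08) and 1.64-fold with IFNa (0.71, SE 0.05, adjusted p = 4.15e-08), each against DMSO, and 1.72-fold in the Combination against FC-A (adjusted p = 1.2e-08). It was the only one of the 9 tested SLC38 genes that rose in these 3 comparisons. Those that fell were mostly scarce. SLC38A5, the glutamine carrier SNAT5, measured 10.6, 13.03 and 18.2 in the Combination, 16.3, 16.2 and 10.9 with IFNa, 23.2, 44.4 and 40.5 with FC-A and 36.3, 46.9 and 39.1 in DMSO. SLC38A3, the glutamine and histidine carrier SNAT3, measured 39.1, 37.9 and 27.8 in the Combination, 39.8, 39.0 and 37.1 with IFNa, 67.7, 57.0 and 70.8 with FC-A and 59.0, 55.5 and 62.0 in DMSO. In both genes the libraries with interferon were all below those without.

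SLC38A5 fell 2.85-fold in the Combination (SE 0.29 on the log2 scale, limma adjusted p = 0.000588) and 2.72-fold with IFNa (SE 0.29, adjusted p = 0.000889), each against DMSO, and 2.45-fold in the Combination against FC-A (adjusted p = 0.00193). SLC38A3 fell 1.68-fold, 1.51-fold and 1.86-fold in the same 3 comparisons (adjusted p = 0.00223, 0.0107 and 0.000596), of which the second was not called without replicate 3 of every group (0.0589). SLC38A4, the carrier SNAT4, measured 34.8, 29.6 and 28.8 in the Combination, 45.9, 47.6 and 38.2 with IFNa, 47.2, 55.1 and 57.9 with FC-A and 66.2, 57.4 and 43.9 in DMSO. The Combination libraries were the lowest of all, while IFNa and DMSO overlapped. SLC38A4 fell 1.75-fold in the Combination against DMSO (adjusted p = 0.00257) and 1.70-fold against FC-A (adjusted p = 0.00386), and did not pass with IFNa against DMSO (log2 fold change -0.33, 95% interval -0.73 to 0.075) or in the Combination against IFNa (-0.48, adjusted p = 0.303).

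The abundant SLC38A1 measured 15291, 16160.1 and 17033 normalized reads in the Combination, 17359.6, 16868 and 17448 with IFNa, 16272, 16364 and 18354 with FC-A and 18187, 18389 and 19687 in DMSO. The Combination lay below DMSO and overlapped the other groups. SLC38A1 fell by 0.22 on the log2 scale in the Combination against DMSO (SE 0.06, limma adjusted p = 0.00688). SLC38A7, a glutamine carrier of the lysosome, measured 761, 811 and 840.2 with IFNa and 909.7, 909 and 935 in DMSO. It measured 786, 862 and 912 in the Combination, which overlapped DMSO, and 868, 878 and 927 with FC-A. With IFNa against DMSO it fell by 0.19 (adjusted p = 0.0251). That call was lost without any single DMSO library (adjusted p from 0.0533 to 0.0799) or IFNa replicate 1 (0.109). In the Combination against DMSO it was not called (authors' deposited table -0.10, adjusted p = 0.35). SLC38A9, the arginine sensor that acts on mTORC1 at the lysosome, SLC38A6 and SLC38A10 were not called anywhere. With IFNa against DMSO their log2 fold changes were -0.069 (95% interval -0.22 to 0.078) for SLC38A9, -0.13 (-0.50 to 0.24) for SLC38A6 and -0.090 (-0.23 to 0.045) for SLC38A10.

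Of the SLC36 carriers, which use protons and sit partly on lysosomes, SLC36A1 measured 883, 998 and 885 normalized reads in the Combination, 807, 919 and 938 with IFNa, 814, 829.8 and 896 with FC-A and 697, 741 and 798 in DMSO. The DMSO libraries were the lowest of all. SLC36A1 rose by 0.31 on the log2 scale in the Combination (SE 0.08, limma adjusted p = 0.00488) and by 0.25 with IFNa (SE 0.08, adjusted p = 0.0163), each against DMSO. The second call was lost after quantile normalization (0.101) and without DMSO replicate 1 (0.0779), IFNa replicate 2 (0.0575) or IFNa replicate 3 (0.059). SLC36A4 was not called, with -0.0525 for IFNa against DMSO (95% interval -0.23 to 0.13). SLC43A1, the branched-chain amino acid carrier LAT3, measured 5.28, 11.8 and 9.61 in the Combination, 14.3, 8.57 and 12.002 with IFNa, 17.8, 30.9 and 18.4 with FC-A and 27.2, 18.2 and 10.5 in DMSO. The Combination lay below FC-A and overlapped DMSO. SLC43A1 fell 2.39-fold in the Combination against FC-A (adjusted p = 0.0144), which was lost without FC-A replicate 2 (0.0738) or Combination replicate 1 (0.0676). In the Combination against DMSO it was not called (log2 fold change -0.95, adjusted p = 0.0534), though edgeR called it (adjusted p = 0.0469). The authors' deposited table does not call it there (-1.07, adjusted p = 0.138). Its relative SLC43A2, the carrier LAT4, was not called in any comparison.

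**Figure D3:**
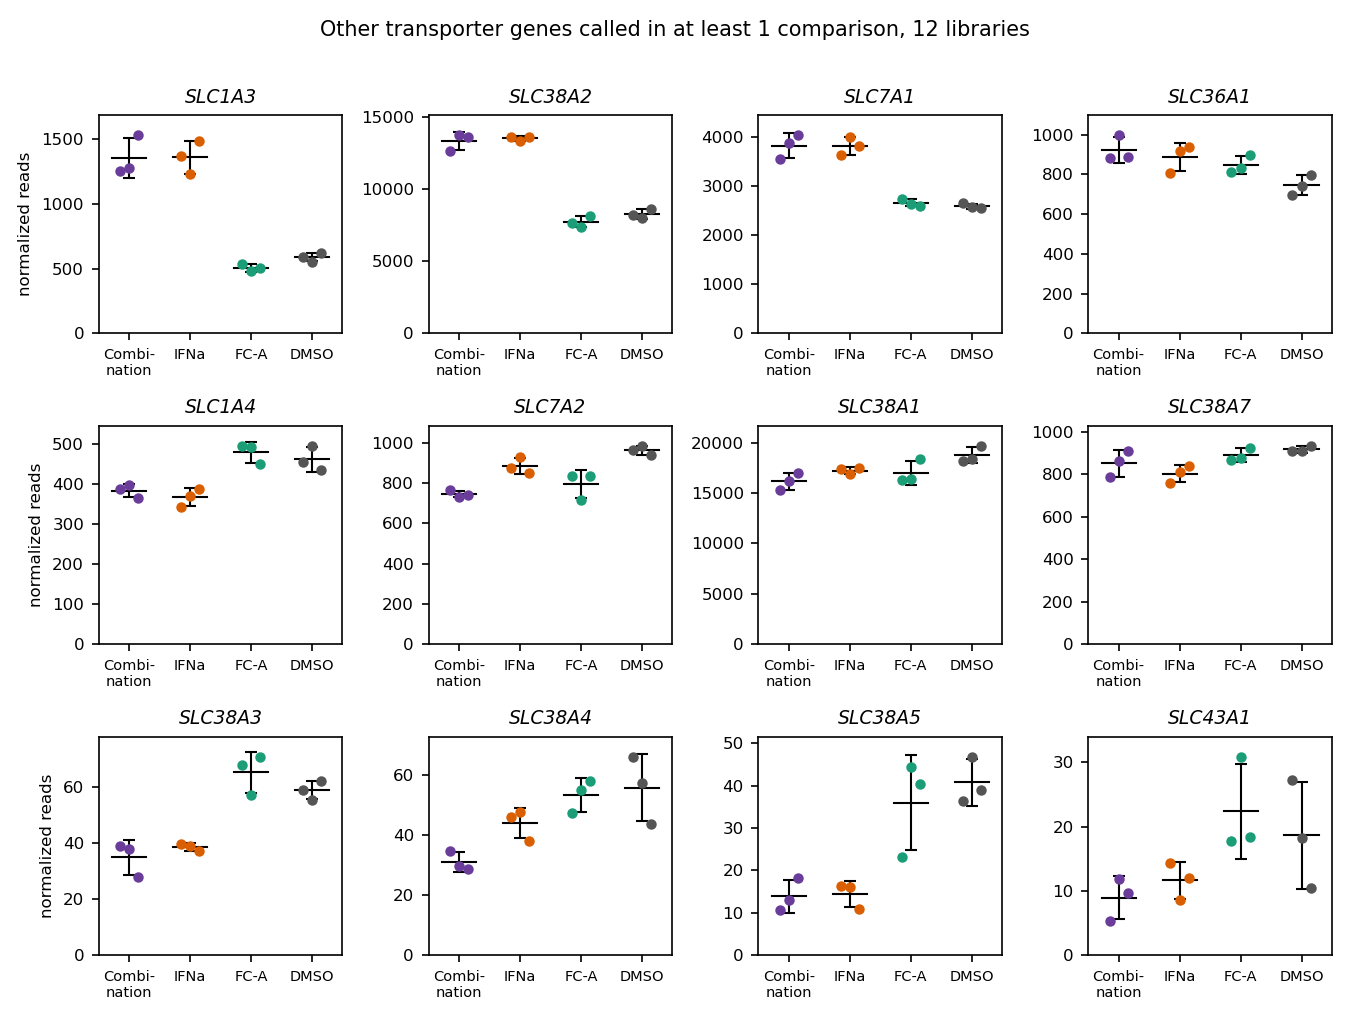
Normalized reads of the 12 other transporter genes called in at least 1 comparison, in the Combination, IFNa, FC-A and DMSO libraries (points, single libraries; bars, mean ± SD, n = 3). SLC1A3, SLC38A2 and SLC7A1 are high in both groups with interferon, SLC38A5 and SLC38A3 are low there, and the Combination libraries of SLC38A4 and SLC7A2 lie below the IFNa libraries.

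Counted together, 12 of the 26 tested members were called with IFNa against DMSO, 6 higher and 6 lower, where 46.9% of all 15990 genes were called (25.4% higher and 21.5% lower). The members' share is near that background. Without SLC7A9, which could pass the minimum only where it was high, 11 of 25 were called, 5 higher and 6 lower. In the Combination against DMSO 13 were called, 6 higher and 7 lower, against 48.3% of all genes (26.1% higher and 22.2% lower), and in the Combination against FC-A 13 were called, 5 higher and 8 lower, against 48.9% (26.6% higher and 22.3% lower). Without SLC7A9 the counts were 12 of 25 (5 higher and 7 lower) and 12 of 25 (4 higher and 8 lower). The median log2 fold change of the 26 members was -0.080 with IFNa against DMSO, -0.12 in the Combination against DMSO and -0.075 in the Combination against FC-A, beside -0.0065, -0.010 and -0.0090 over all genes. These comparisons share libraries, so their calls are not independent of each other. After quantile normalization, which moved the median of all genes to -0.0991, -0.111 and -0.107, the calls split into 5 higher and 11 lower for IFNa against DMSO (18.6% and 32.3% of all genes). The split was 6 and 13 for the Combination against DMSO (19.2% and 34.3%) and 5 and 13 for the Combination against FC-A (19.4% and 33.8%).

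**Figure D4:**
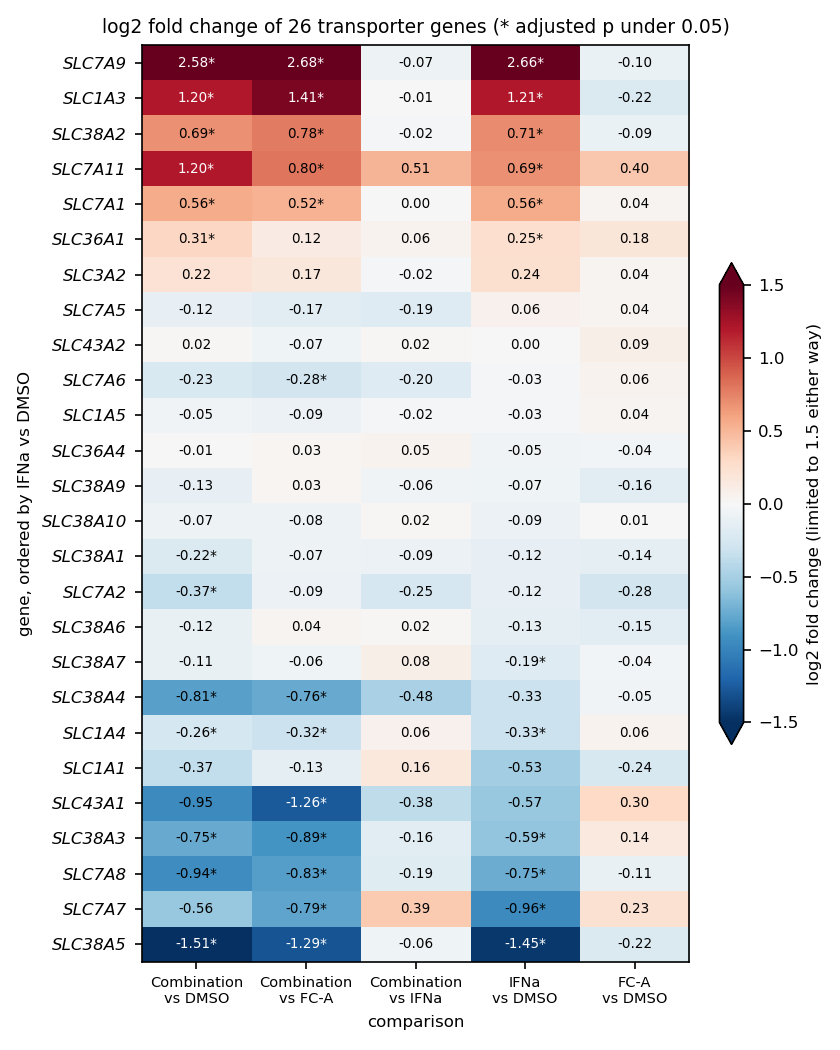
Log2 fold change of the 26 tested transporter genes in 5 comparisons (columns), ordered by IFNa against DMSO, with an asterisk for limma adjusted p under 0.05; colours are limited to 1.5 either way. SLC7A9, SLC1A3, SLC38A2, SLC7A11 and SLC7A1 carry asterisks at the top of the 3 columns that add interferon, and SLC38A5 is at the bottom with -1.45. The columns of FC-A against DMSO and of the Combination against IFNa carry no asterisk.

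Fitted to all 12 libraries with no replicate term, limma called no member for FC-A alone or on top of interferon. Other tools called some, and so did limma with the replicate number as a block or without replicate 3 of every group. In FC-A against DMSO limma called 0 of 26 members, against 0.3% of all genes, with 6 members at an unadjusted p under 0.05. In the same comparison edgeR called 0 members (0.3% of all genes), whereas DESeq2 on the recovered reads called SLC7A2 (1.11% of all genes). The authors' deposited table also lists only SLC7A2 among the members there (1.11% of all genes). In the Combination against IFNa limma called 0 of 26, against 0.331% of all genes, with 4 at an unadjusted p under 0.05. There edgeR called 0 members (0.344% of all genes), and both DESeq2 and the authors' deposited table call SLC7A11 alone (1.73% of all genes each). The median log2 fold change of the members was -0.017 in FC-A against DMSO and -0.021 in the Combination against IFNa, beside -0.0046 and 0.0046 over all genes. The interaction of both agents was called for 0 of 26 members and 0 of 15990 genes by limma and edgeR (0% each), with 627 genes and 0 members at an unadjusted p under 0.05 in limma. DESeq2 called 3 genes (0.0107%), of which 0 were members.

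For SLC7A11 the log2 fold change was 0.40 (SE 0.12, 95% interval 0.14 to 0.66, limma adjusted p = 0.279) in FC-A against DMSO and 0.51 (SE 0.12, 0.25 to 0.77, adjusted p = 0.109) in the Combination against IFNa. All 3 libraries with FC-A were above all 3 without it in each case. The authors' deposited table gave 0.52 for the Combination against IFNa (adjusted p = 0.0294) and 0.40 for FC-A against DMSO (adjusted p = 0.341). SLC7A2 measured -0.28 (95% interval -0.42 to -0.14, adjusted p = 0.12) in FC-A against DMSO and -0.25 (-0.39 to -0.10, adjusted p = 0.158) in the Combination against IFNa, with every FC-A-treated library below its control libraries. The authors' deposited table gave -0.28 (adjusted p = 0.0309) and -0.25 (adjusted p = 0.0742). The interaction was 0.11 for SLC7A11 (95% interval -0.26 to 0.48) and 0.034 for SLC7A2 (-0.17 to 0.24).

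A contrast that averages the effect of FC-A over cells with and without interferon was added after these values were seen, so it is no independent support for them. It called 2 of 26 members, against 1.96% of all genes (1.12% higher and 0.844% lower). SLC7A11 rose 1.37-fold (log2 fold change 0.46, SE 0.09, limma adjusted p = 0.0147), and without FC-A replicate 2 it was not called (0.0524). SLC7A2 fell 1.20-fold (SE 0.05, adjusted p = 0.0111) and stayed called without any single library, with a highest adjusted p of 0.0434. In that contrast SLC3A2 measured 0.00996 (95% interval -0.15 to 0.17) and SLC7A5 -0.073 (-0.32 to 0.17). The median of the 26 members was -0.041, beside 0.00024 over all genes.

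**Figure D5:**
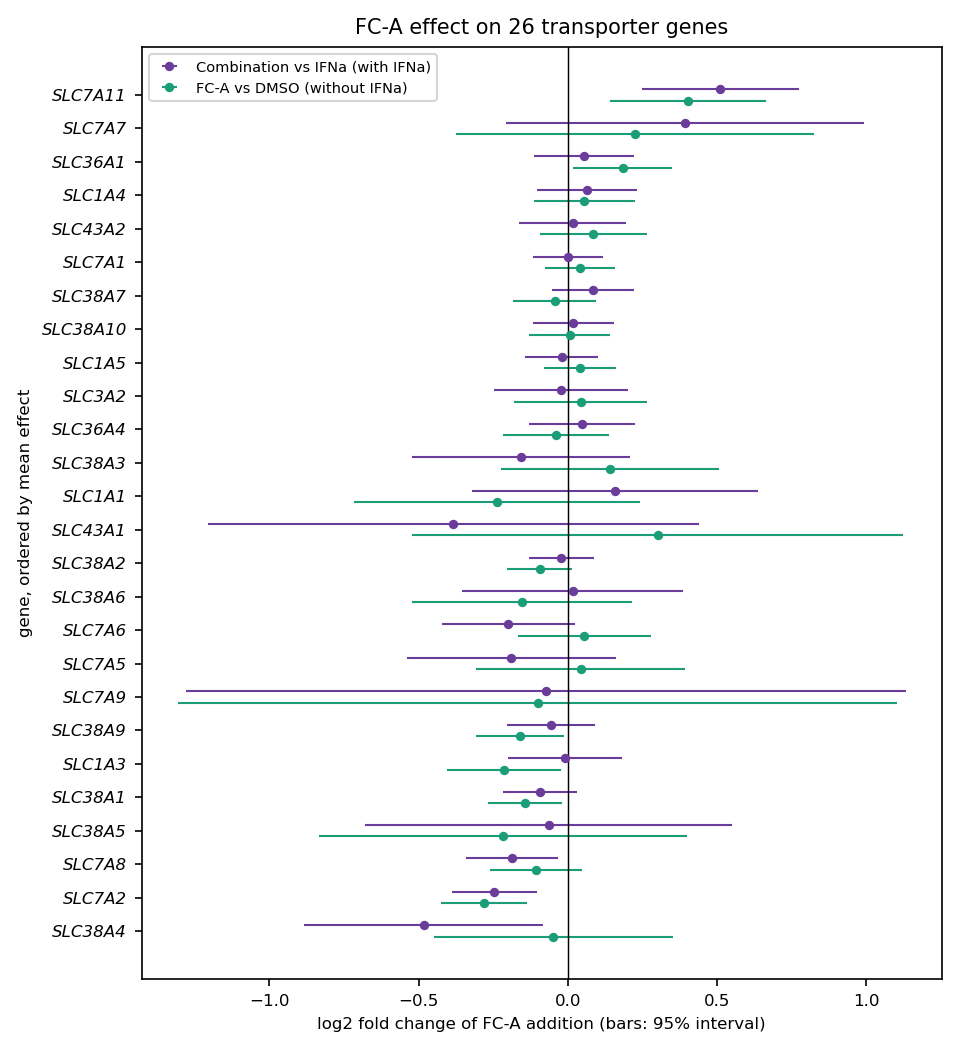
Log2 fold change on adding FC-A for the 26 tested transporter genes, in cells given IFNa (Combination against IFNa) and without it (FC-A against DMSO), with 95% intervals (bars), ordered by the mean effect. SLC7A11 lies at the top with 0.51 and 0.40, SLC7A2 has intervals below 0 in both, and most intervals include 0.

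Genes around amino acid supply were followed through 5 lists. Of 23 tested genes of the integrated stress response other than transporters, 15 rose and 5 fell in the Combination and 14 rose and 5 fell with IFNa, each against DMSO, where 48.3% and 46.9% of all genes were called. The median log2 fold changes of the list were 0.50 and 0.34. ATF4, its central transcription factor, rose 1.58-fold in the Combination (limma adjusted p = 5.87e-08) and 1.43-fold with IFNa (adjusted p = 8.72e-07). The largest rises were those of NUPR1, a stress-induced chromatin protein, GDF15, a stress-induced cytokine, and CHAC1, which degrades glutathione. In the Combination against DMSO they were 12.1-fold, 6.69-fold and 4.33-fold (adjusted p = 2.22e-09, 4.44e-09 and 8.06e-10). Not all of the list rose. The serine synthesis enzymes PSAT1, PHGDH and PSPH fell with IFNa against DMSO by 0.61, 0.41 and 0.46 on the log2 scale (adjusted p = 1.57e-07, 5.79e-06 and 1.29e-05), and in the Combination against DMSO by 0.50, 0.28 and 0.26. DDIT4, a stress-induced inhibitor of mTORC1, averaged 5189.6 ± 484 normalized reads in the Combination, 2791 ± 383 with IFNa, 5711 ± 479 with FC-A and 3655 in DMSO, so it was the 1 gene of this list called in FC-A against DMSO (1.56-fold higher, adjusted p = 0.00659). In the contrast averaged for FC-A 7 of the 23 rose and 0 fell, against 1.12% higher and 0.844% lower of all genes, and the 7 were DDIT3, CHAC1, SESN2, DDIT4, ATF3, NUPR1 and GDF15.

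Of 25 genes of cystine and glutathione metabolism, 6 rose and 3 fell in the Combination and 6 rose and 4 fell with IFNa, each against DMSO, which is below the 48.3% and 46.9% called over all genes, with medians of -0.014 and -0.0099. BACH1, a repressor of antioxidant genes, rose 1.70-fold (limma adjusted p = 3.39e-07), CD44, a surface protein that binds xCT, 1.55-fold (adjusted p = 5.75e-06) and NFE2L2, which encodes the antioxidant regulator NRF2, 1.43-fold (adjusted p = 2.34e-07) in the Combination against DMSO. GGT1, which breaks down extracellular glutathione, fell 1.60-fold with IFNa against DMSO (adjusted p = 0.0171). Of 35 genes of amino acid sensing by mTORC1, 4 rose and 7 fell in the Combination and 3 rose and 9 fell with IFNa, each against DMSO, again below the 48.3% and 46.9% over all genes, with medians of -0.050 and -0.047. The Rag GTPase genes went opposite ways, since RRAGC rose 1.51-fold and RRAGD fell 1.996-fold in the Combination against DMSO (adjusted p = 1.13e-06 and 1.22e-06). The sestrin genes, whose products sense leucine or stress, did so too, with SESN2 1.95-fold higher and SESN3 1.41-fold lower there (adjusted p = 3.12e-07 and 0.000382).

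Amino acid carriers outside the 6 families numbered 21 tested genes, of which 9 rose and 3 fell in the Combination and 8 rose and 2 fell with IFNa, each against DMSO, where 26.1% of all genes were higher and 22.2% lower in the Combination and 25.4% higher and 21.5% lower with IFNa. The medians of the list were 0.049 and 0.11. SLC6A9, the glycine carrier GlyT1, averaged 1163 ± 138 normalized reads in the Combination, 819.9 ± 204 with IFNa, 352 ± 24.7 with FC-A and 314 ± 22.1 in DMSO. It rose 3.68-fold and MFSD12, a lysosomal carrier of cysteine, 2.39-fold in the Combination against DMSO (limma adjusted p = 5.07e-08 and 6.52e-11). SLC16A10, an aromatic amino acid carrier, fell 2.55-fold there (adjusted p = 0.00565), and SLC25A22, a mitochondrial glutamate carrier, rose 1.40-fold with IFNa against DMSO (adjusted p = 4e-04). Of 17 enzymes that use amino acids, 5 rose and 7 fell in the Combination and 5 rose and 5 fell with IFNa, beside 48.3% and 46.9% of all genes called, with medians of -0.16 and -0.062. WARS, the tryptophan tRNA synthetase, averaged 51960.3 in the Combination, 41129.7 with IFNa, 4662 with FC-A and 4818 in DMSO. IDO1, which degrades tryptophan, averaged 4734 in the Combination, 3417 with IFNa, 16.9 with FC-A and 25.4 in DMSO. ODC1, which makes polyamines from ornithine, fell 1.97-fold in the Combination against DMSO (adjusted p = 1.17e-05), and GLS2, a glutaminase, fell 2.28-fold with IFNa against DMSO (adjusted p = 0.00118). In the contrast averaged for FC-A 1 of the 21 carriers rose and 1 fell, and 0 of the 17 enzymes rose and 1 fell. Of all genes 1.12% were higher and 0.844% lower in that contrast. The falls were those of ARG2, an arginase, and SFXN2, a mitochondrial carrier, by 1.31-fold and 1.20-fold (limma adjusted p = 0.0189 and 0.0337).

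The 11 members below the minimum mean were SLC1A2, SLC1A6, SLC1A7, SLC36A2, SLC38A8, SLC3A1, SLC43A3, SLC7A3, SLC7A10, SLC7A13 and SLC7A14. Just inside the minimum was SLC7A9 with a mean of 10.02, and just outside was SLC7A10, the light chain Asc-1 for small neutral amino acids, with 9.16. SLC7A10 measured 7.39, 3.55 and 3.20 normalized reads in the Combination, 6.12, 3.81 and 2.18 with IFNa, 13.4, 10.6 and 22.1 with FC-A and 10.9, 10.5 and 16.2 in DMSO, so its libraries with interferon were all below the others. With no minimum applied, limma gave it a log2 fold change of -1.48 with IFNa against DMSO (adjusted p = 0.0187), and -1.29 (adjusted p = 0.0372) in the Combination against DMSO. The authors' deposited table calls the first (adjusted p = 0.0333) but not the second (0.101). SLC3A1, the heavy chain rBAT, averaged 1.11 in the Combination, 1.34 with IFNa, 3.40 with FC-A and 5.62 in DMSO, levels of a few reads per library. With no minimum, limma called SLC3A1 lower with IFNa (-1.44, adjusted p = 0.0491) and in the Combination (-1.72, adjusted p = 0.0189), each against DMSO. The authors' deposited table calls neither difference of SLC3A1 (adjusted p = 0.128 for each). The other 9 had means between 0.230 and 2.57 over the 12 libraries. Among them SLC7A3 was called lower in the Combination against DMSO by limma with no minimum (-1.60, adjusted p = 0.0309). That call rests on 0, 0 and 0 recovered reads in the Combination and 3, 1 and 3 in DMSO. The authors' deposited table gives no adjusted p for it.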

How the data were processed

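RNA libraries were made from 100 ng of total RNA with a stranded mRNA kit, per the labels. The deposited signal values are gene counts that the authors divided by 1 size factor per library, called normalized reads here. Whole reads were recovered from them (100% of values within 0.01 of a whole number). The log2 fold changes, p-values and scores (standard errors and Wald statistics) of the authors' deposited tables were used as they stand, per the file headers. Per the submitters' processing notes, the tools were STAR 2.7.3, FastQC, bcl2fastq 2.20 and DESeq2 1.24.0, with genome build hg19. The counting program, its strand setting and its annotation are unknown here. Gene lengths came from GENCODE v29, matched by gene ID, and promoter sequences from RefSeq.

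The 15990 genes that averaged 10 or more normalized reads across all 12 libraries entered the test. Values were transformed to log2 with a pseudocount of 1, so changes of scarce genes are understated. In R 4.3.3, limma 3.58.1 estimated 1 mean for every group with an intensity trend in the variance, and p was two-sided and adjusted by Benjamini-Hochberg over all tested genes. "Called" means an adjusted p under 0.05. The fit was tested on simulated data. Alternatives included edgeR 4.0.16 and DESeq2 1.42.0 on the recovered reads, other pseudocounts, filters and scalings, the replicate number as a block, and libraries left out.

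The members, the gene lists and the tests were chosen with earlier results of these data known. Every called member was named, and from the other lists up to 3 called genes per comparison with the largest change. PSAT1, PHGDH, PSPH and NFE2L2 fall outside that rule and were chosen after their values were seen, as were the 4 promoters and the setting without replicate 3 in edgeR.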

Additional observations from a re-analysis of the deposited data

How the results depend on the processing

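Of 40 called differences of single transporter genes, 31 stayed called in the same direction under every alternative that tested them, other than requiring a 2-fold change. Of the rest, 9 were lost under at least 1 and 0 reversed. Genes under a mean of 50 were not tested with that minimum. The counts of 40 and 31 include the calls of SLC7A9, which passed the minimum mean only through libraries with interferon and so adds no evidence. The calls for SLC1A3, SLC38A2, SLC7A1, SLC7A8, SLC38A5 and SLC7A11 with interferon against groups without it were among those kept. For FC-A against DMSO, 1 member was called, against 0, by DESeq2 (1.11% of all genes), in the authors' deposited table (1.11%), with the replicate number as a block (1.81%) and by edgeR without replicate 3 of every group (0.938%), a setting chosen after seeing the data. For the Combination against IFNa the count, against 0, was 1 with DESeq2 (1.73% of all genes), 1 in the authors' deposited table (1.73%), 2 with the block (6.31%), 1 without replicate 3 of every group (7.42%) and 2 with edgeR without it (7.98%). With a fold of at least 2 required, the counts were 3 for IFNa against DMSO (9% of all genes), 4 for the Combination against DMSO (9.81%), 4 for the Combination against FC-A (9.84%) and 0 for the averaged FC-A contrast (0.025%). A minimum mean of 50 left 7 calls for the Combination against FC-A (53.7% of all genes), because fewer genes were tested. The averaged contrast had 4 calls with the block, where 10.5% of all genes were called, and between 1 and 2 with 1 library left out.

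Replicate numbers were not treated as pairs, because not every pair of same-numbered libraries had a correlation of their deviations above 0.1 (10 of 18 did, range 0.018 to 0.395). All 6 pairs of replicate 3 did, from 0.188 to 0.395, so replicate 3 libraries deviated together. With the replicate block 15 members were called for IFNa against DMSO, 17 for the Combination against DMSO, 16 for the Combination against FC-A and 0 for the interaction, where the block called 53.9%, 55.4%, 55.7% and 0.00625% of all genes. With the block SLC3A2 was higher with IFNa (adjusted p = 0.00052) and in the Combination (0.00122) against DMSO and in the Combination against FC-A (0.00638), where SLC7A5 was lower (0.0255). SLC7A11 was higher in the Combination against IFNa (0.023), where SLC7A2 was lower (0.0334).

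SLC3A2 and SLC7A5, not called without the block, changed sign in places, and the cause was not tested. Under quantile normalization SLC7A5 was -0.19 with IFNa against DMSO and SLC3A2 -0.050 in the Combination against FC-A. With 1 library left out, SLC3A2 ranged from -0.055 to 0.17 in FC-A against DMSO, -0.085 to 0.059 in the Combination against IFNa, -0.039 to 0.073 in the averaged contrast and -0.19 to 0.032 in the interaction. SLC7A5 ranged from -0.084 to 0.21 in FC-A against DMSO, -0.064 to 0.23 with IFNa against DMSO, -0.21 to 0.021 in the Combination against DMSO and -0.15 to 0.0082 in the averaged contrast.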
